A study of Danio rerio with 6 samples.

Results

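The genes described here are 10 hormone and neuropeptide genes of the pituitary and hypothalamus: pomca, gh1, prl, tshba, cga, crhb, avp, oxt, npy and agrp. They were given by name and looked up among the 25859 Ensembl genes of each count file. A gene of the same symbol was found for 8 names, with POMC (ENSDARG00000043135) counted as pomca. The other 2, tshba and crhb, are carried in the symbol table as TSHB (ENSDARG00000033726) and CRH (ENSDARG00000027657), which the RefSeq table (assembly GRCz12tu) lists as synonyms of those names. The symbol CGA stands on 2 genes, so the 10 names gave 11 rows. Of the 11 rows, 9 passed the filter on low counts and were tested. The row for tshba and the second CGA gene (ENSDARG00000103345, with 1 read in all pools together) did not pass it.

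Zebrafish (Danio rerio) larvae homozygous for a knockout of hspd1 (hspd1-/-) were compared with hspd1+/+ larvae from in-crosses of the same heterozygous line, at 5 days post fertilization (dpf). The hspd1 gene codes for HSP60, the chaperonin of the mitochondrial matrix. Each of the 6 poly(A) RNA libraries, 3 knockout and 3 control, came from a pool of 5 genotyped larval bodies without the tip of the caudal fin, and the pooling was repeated over 3 mating sets. RNA thus came from nearly whole larvae, in which pituitary and hypothalamus are small parts, and fewer cells of a type and less RNA per cell cannot be told apart.

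The libraries held 18517874 to 20331675 counts each. The levels below are CPM, reads of a gene relative to all counts of its pool after TMM scaling, and fold changes are knockout over control with n = 3 pools each. Levels are not corrected for transcript length, so they are compared between pools and not between genes. The targeted gene hspd1 stood at 73.4, 67.9 and 82.3 CPM in knockout pools 1, 2 and 3 and at 124, 133 and 132 CPM in control pools 1, 2 and 3 (log2 fold change −0.79, edgeR quasi-likelihood test, adjusted p = 0.00134). The threshold, an adjusted p of 0.05, was met by 853 (3.95%) of the 21602 tested genes, 314 upward in the knockout (1.45%) and 539 downward (2.5%). With upper-quartile scaling these were 419 upward and 465 downward. Of the same 21602 genes, DESeq2 called 404 upward and 710 downward, and limma-voom 295 upward and 518 downward. An unadjusted p under 0.05 was met by 6.75% of tested genes upward and by 8.83% downward. The knockout and control pools did not overlap for 21.4% of tested genes. The median log2 fold change of all tested genes was −0.01.

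The hypothalamus controls the pituitary through peptides released by its neurons, and the pituitary in turn releases hormones into the blood. Corticotropin-releasing hormone (crhb) stimulates pituitary cells that make proopiomelanocortin (pomca), the precursor of ACTH and melanocyte-stimulating hormone, and ACTH drives steroid synthesis in the interrenal gland, the adrenal cortex of fish. Growth hormone (gh1), prolactin (prl) and thyrotropin (tshba with the shared alpha subunit cga) come from other pituitary cell types. In zebrafish avp codes for vasotocin and oxt for isotocin, the counterparts of mammalian vasopressin and oxytocin. Neuropeptide Y (npy) and agouti-related peptide (agrp) stimulate feeding, and the agrp peptide blocks melanocortin receptors.

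The precursor gene pomca rose in the knockout larvae, and it was the 1 hormone gene of the 9 tested that passed the threshold with edgeR. It stood at 22.9, 25.0 and 29.8 CPM in knockout pools 1, 2 and 3, against 11.1, 9.55 and 8.10 CPM in control pools 1, 2 and 3. The lowest knockout pool was above the highest control pool by more than the range within either group. The means were 25.9 ± 3.56 CPM in knockout pools and 9.57 ± 1.48 CPM in control pools (SD, n = 3 each). This was a 2.70-fold higher level (95% interval 2.17 to 3.37), or a log2 fold change of 1.44 (SE 0.15; adjusted p = 0.000137 by the same edgeR test). By p, pomca ranked 108 among the 21602 genes. The fold change rests on 1488 reads in the knockout pools and 546 in the control pools, and pomca passed the threshold in all 14 other fits. These changed the scaling, the filter, the tool, the model, the robust estimation or the pools. The highest adjusted p, 0.00109, came from the edgeR fit with the replicate number as a block.

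The second proopiomelanocortin gene, pomcb, had too few reads to be tested. It had 7, 8 and 5 reads in knockout pools 1, 2 and 3 and 5, 5 and 4 reads in control pools 1, 2 and 3. The ratio was 1.42 (95% exact binomial interval 0.680 to 3.03, counting error only), an interval that holds both no change and the fold change of pomca.

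**Figure D1:**
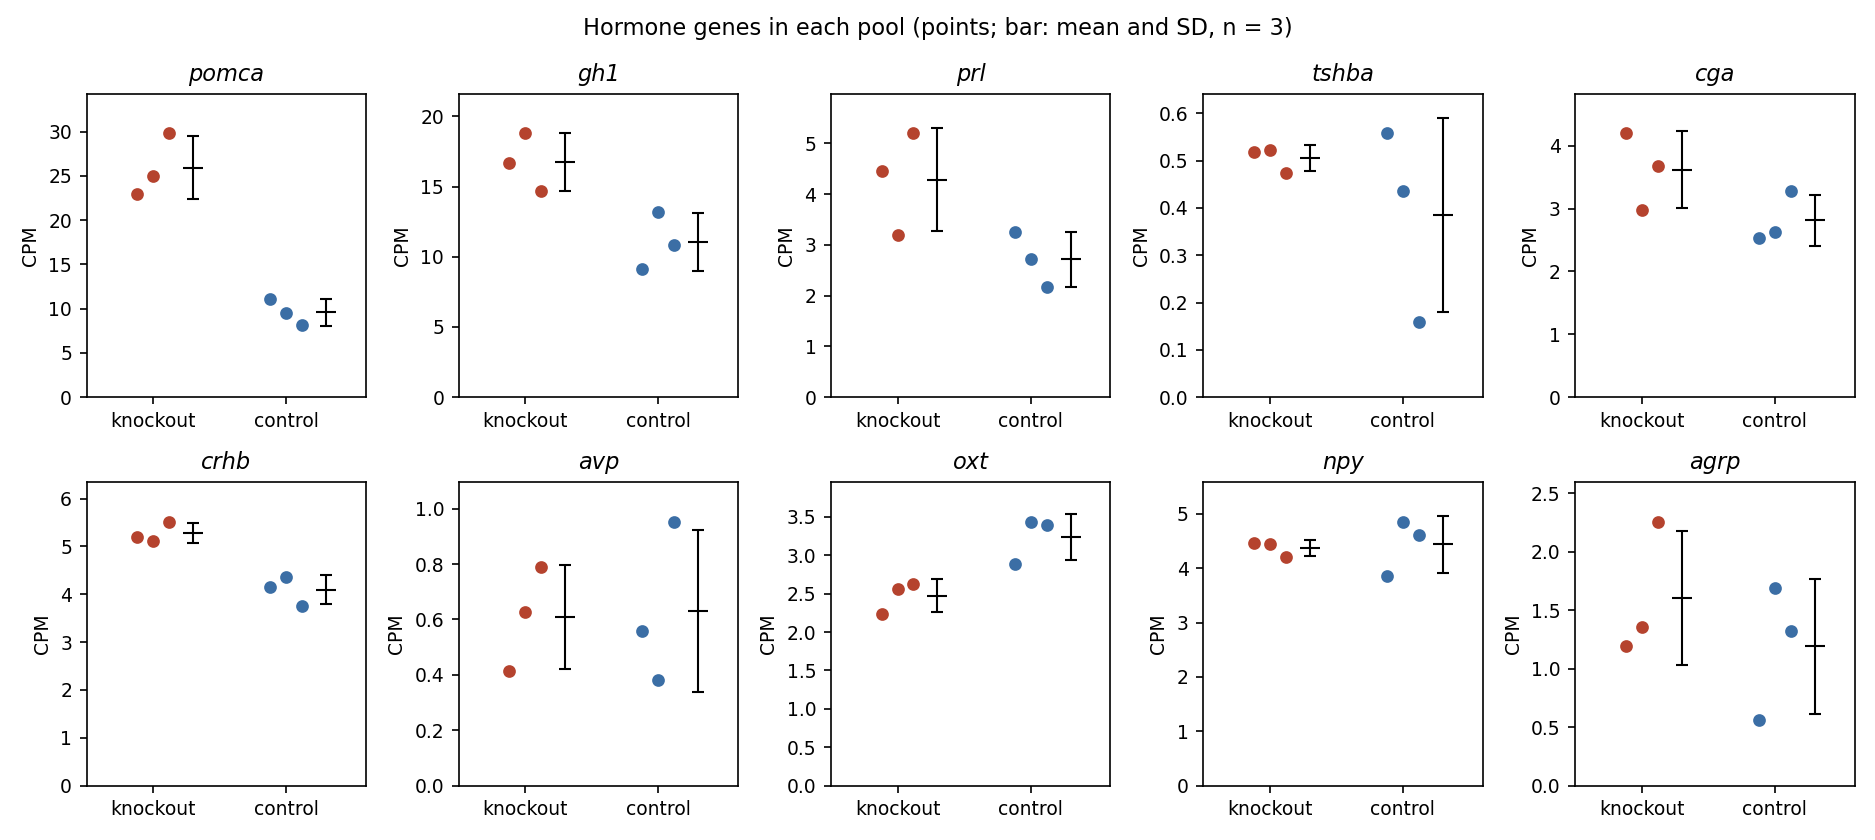
Scaled CPM of the 10 hormone genes in each pool, with knockout pools in red on the left and control pools in blue on the right; the bars are the mean and SD of 3 pools, and each y axis starts at 0. The pools do not overlap for pomca, gh1, crhb and oxt, and the second CGA gene with its 1 read is not drawn.

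Growth hormone and prolactin are made by 2 related pituitary cell types. The level of gh1 was 16.7, 18.8 and 14.7 CPM in knockout pools 1, 2 and 3, against 9.13, 13.2 and 10.9 CPM in control pools 1, 2 and 3. The groups did not overlap, and the lowest knockout pool was close to the highest control pool. The log2 difference was 0.60 (SE 0.15, 95% interval 0.26 to 0.93), and gh1 did not pass the threshold (edgeR quasi-likelihood test, adjusted p = 0.0549). Over the 14 other fits its adjusted p ran from 0.0215 to 0.204, and it passed in 5 of them. These were DESeq2 (0.0215), no filter on low counts (0.0417), upper-quartile scaling (0.0332), and the fits without knockout pool 3 (0.0401) or without control pool 2 (0.0263).

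For prl the pools overlapped. It had 4.46, 3.19 and 5.20 CPM in knockout pools 1, 2 and 3, against 3.25, 2.73 and 2.17 CPM in control pools 1, 2 and 3. Knockout pool 2 was slightly below control pool 1, and the other pairs were ordered with the knockout above. The log2 difference of 0.65 (95% interval 0.16 to 1.14) did not pass (edgeR adjusted p = 0.161), and in the other settings the adjusted p was 0.0860 to 0.389.

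The glycoprotein hormone subunits did not pass either. The alpha subunit gene cga (ENSDARG00000040479) had 4.20, 2.98 and 3.68 CPM in knockout pools 1, 2 and 3, and 2.54, 2.62 and 3.28 CPM in control pools 1, 2 and 3. The groups overlapped through knockout pool 2 and control pool 3, and the log2 difference was 0.36 (95% interval −0.07 to 0.79, edgeR adjusted p = 0.414). The thyrotropin beta gene tshba had 10, 10 and 9 reads in knockout pools 1, 2 and 3, against 11, 8 and 3 in control pools 1, 2 and 3. Its read ratio was 1.31 (95% exact binomial interval 0.725 to 2.39), and with no filter its log2 difference was 0.39 (95% interval −0.63 to 1.42, edgeR adjusted p = 0.763). Both intervals hold no change as well as changes in either direction.

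Within each pool, pomca can be set against the other pituitary hormones of the set, in a ratio that does not depend on library scaling. There were 1.37, 1.33 and 2.03 pomca reads per gh1 read in knockout pools 1, 2 and 3, against 1.21, 0.723 and 0.746 in control pools 1, 2 and 3. All 3 knockout pools were above all 3 control pools, with control pool 1 closest to them. Per read of gh1, prl, cga and tshba together, pomca had 0.886, 0.980 and 1.24 reads in the knockout pools and 0.715, 0.503 and 0.492 in the control pools. These ratios were formed after the levels were seen and are given without a test.

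**Figure D2:**
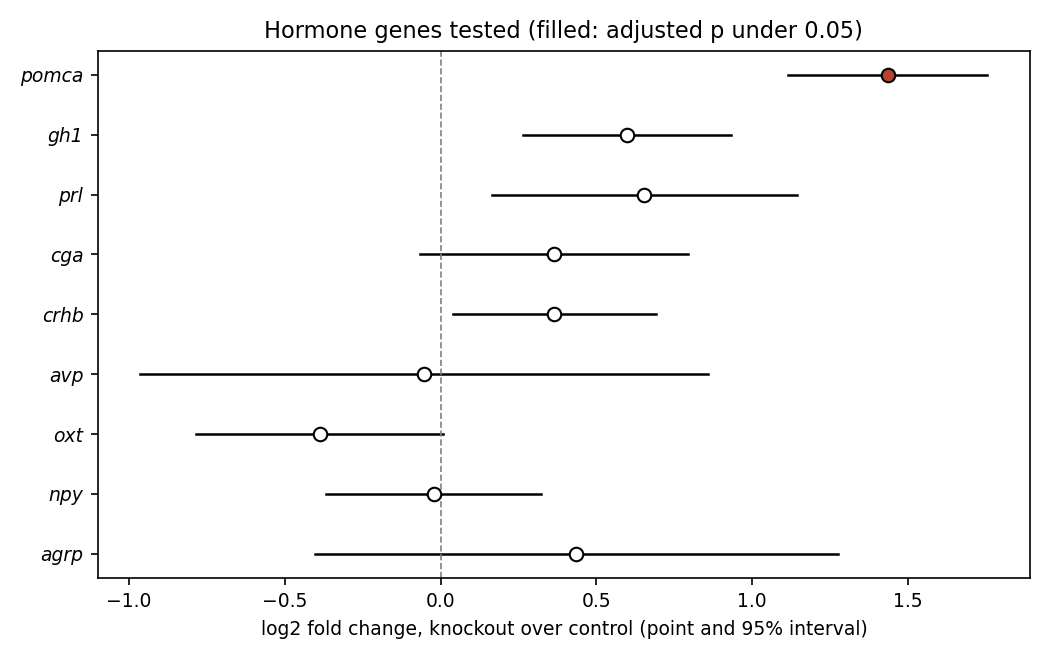
Log2 fold change, knockout over control, of the 9 tested hormone genes (points) with 95% intervals (lines) from the edgeR quasi-likelihood fit; the filled point passed an adjusted p of 0.05. The interval of pomca runs from 1.12 to 1.75, and the intervals of cga, avp, oxt, npy and agrp include 0.

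Of the hypothalamic genes, crhb had 5.19, 5.12 and 5.52 CPM in knockout pools 1, 2 and 3, against 4.16, 4.37 and 3.76 CPM in control pools 1, 2 and 3. The groups did not overlap, yet the log2 difference of 0.36 (SE 0.15, 95% interval 0.04 to 0.69) did not pass the threshold (edgeR adjusted p = 0.257, and 0.189 to 0.532 in the other settings). Its paralog crha, which was too low to be tested, had 3, 3 and 5 reads in knockout pools 1, 2 and 3 and 0, 1 and 1 reads in control pools 1, 2 and 3. That is a ratio of 5.45 with a 95% exact binomial interval of 1.19 to 50.6, for counting error only.

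The isotocin gene oxt was the 1 member whose pools all lay below the controls. It had 2.23, 2.56 and 2.63 CPM in knockout pools 1, 2 and 3, against 2.89, 3.44 and 3.39 CPM in control pools 1, 2 and 3. The log2 difference was −0.39 (95% interval −0.78 to 0.01) and did not pass (edgeR adjusted p = 0.331). As reads of crhb per read of oxt, the pools were at 2.33, 2.0 and 2.1 in the knockout and at 1.44, 1.27 and 1.11 in the control, without overlap. This ratio too was formed after the levels were seen. Its separation follows from crhb lying above and oxt below the controls in every knockout pool, and it adds nothing to those levels.

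The vasotocin gene avp was near the lower limit of what could be tested, with 8, 12 and 15 reads in knockout pools 1, 2 and 3 and 11, 7 and 18 reads in control pools 1, 2 and 3. The groups overlapped fully. Its log2 difference of −0.05 had a wide 95% interval, −0.96 to 0.86 (edgeR adjusted p = 0.967), which holds no change as well as changes in either direction.

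The feeding peptide gene npy had 4.46, 4.44 and 4.20 CPM in knockout pools 1, 2 and 3, against 3.86, 4.86 and 4.61 CPM in control pools 1, 2 and 3. The knockout values lay inside the range of the controls. The log2 difference was −0.02 with a 95% interval of −0.37 to 0.32 (edgeR adjusted p = 0.965), and the sign turned under 1 scaling and when single pools were left out.

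The level of agrp was 1.19, 1.36 and 2.26 CPM in knockout pools 1, 2 and 3, against 0.558, 1.69 and 1.32 CPM in control pools 1, 2 and 3. Knockout pool 3 was the highest and control pool 1 the lowest, and the other 4 pools were mixed. The log2 difference of 0.44 (95% interval −0.40 to 1.27) did not pass (edgeR adjusted p = 0.643), and it ran from 0.10 to 0.78 over the other settings.

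Counted together, 1 of the 9 tested hormone genes was higher at the threshold, beside 1.45% of all tested genes, and 0 were lower, beside 2.5%. DESeq2 called 2 higher and 0 lower, beside 404 and 710 of the 21602 tested genes. By limma-voom 1 was higher and 0 lower, beside 295 and 518. At an unadjusted p under 0.05, 4 were higher (pomca, gh1, prl and crhb), beside 6.75% of all tested genes, and 0 lower, beside 8.83%. Groups without overlap were seen for 4 of the 9, of which 3 were higher and 1 lower, beside 21.4% of all tested genes. The median log2 difference of the 9 was 0.36, beside −0.01 for all tested genes. Of these genes pomca, gh1, prl, tshba and cga are made in the pituitary, pomca also in neurons of the hypothalamus. The tested 4 of them all had positive values (0.36 to 1.44), beside 49.1% of all tested genes. For prl and cga the groups overlapped, and pomca alone passed with edgeR. The hypothalamic genes had values on both sides of 0 (−0.39 to 0.44). This split by organ was not tested.

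The pattern most like that of pomca over the 6 pools was sought among 19584 other genes with a symbol and a mean of at least 1 CPM. Likeness was the root mean square difference of log2 CPM, after the mean of each gene over the pools was taken away. The nearest gene was ATF3, a stress-induced transcription factor, at 0.07 log2 units. It had 38.2, 37.2 and 45.0 CPM in knockout pools 1, 2 and 3, against 16.5, 13.4 and 11.9 CPM in control pools 1, 2 and 3 (log2 fold change 1.52, edgeR adjusted p = 5.89e-05). The next was TRIB3, a pseudokinase gene, at 0.11 log2 units. Its level was 60.1, 74.4 and 76.5 CPM in knockout pools 1, 2 and 3, and 30.2, 27.5 and 26.1 CPM in control pools 1, 2 and 3. The third was GTPBP1 (ENSDARG00000053467), which codes for a GTP-binding protein, at 0.15 log2 units. It had 109, 152 and 150 CPM in the knockout pools and 49.1, 48.5 and 44.5 CPM in the control pools. The profiles were matched over pools of both genotypes, so genes with a genotype difference of similar size come first by construction.

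**Figure D3:**
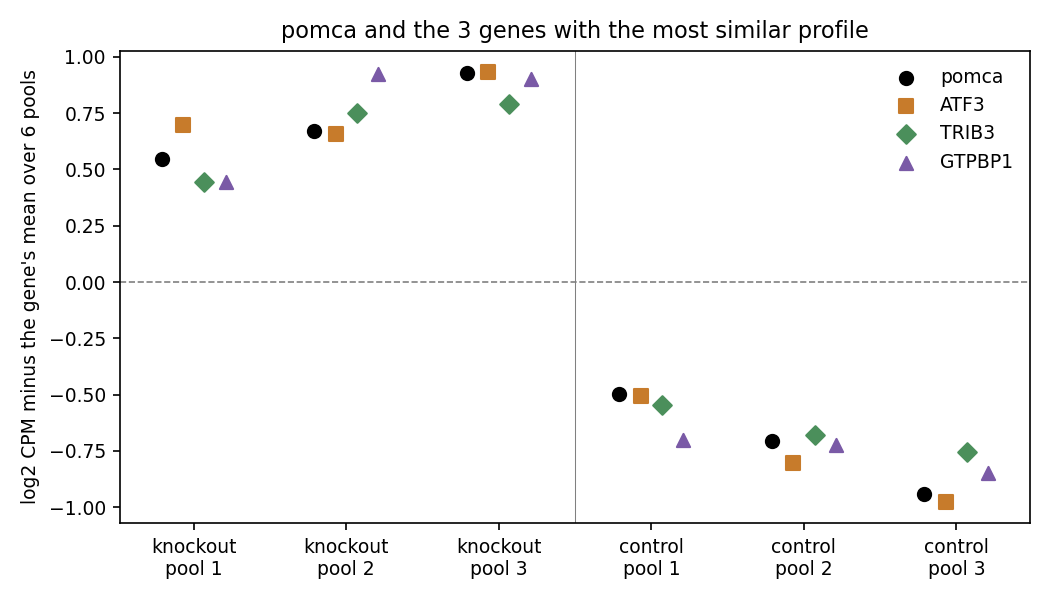
Log2 CPM of pomca and of the 3 genes with the most similar profile (ATF3, TRIB3 and GTPBP1) in each pool, after subtraction of the mean of each gene over the 6 pools; symbols mark genes, with knockout pools left of the grey line. All 4 genes lie above 0 in the knockout pools and below 0 in the control pools, pomca between 0.55 and 0.93 and between −0.94 and −0.50.

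Other hormones of the pituitary were mostly too low to be tested at this age. Of 9 further genes, pituitary hormone genes apart from spx, which codes for the neuropeptide spexin, 2 passed the filter. These were smtlb and spx, and neither passed the threshold. The somatolactin gene smtlb varied widely, with 7.10, 4.08 and 1.42 CPM in knockout pools 1, 2 and 3 and 1.17, 2.84 and 2.59 CPM in control pools 1, 2 and 3. Knockout pool 1 was the highest, and the groups overlapped (log2 difference 0.94, edgeR adjusted p = 0.522). The neuropeptide gene spx had a log2 difference of 0.65 (edgeR adjusted p = 0.305). DESeq2 and limma-voom called 0 of the 2, and spx was higher at an unadjusted p under 0.05, beside 6.75% of all tested genes. The gonadotropin beta genes were close to absent, with 2 lhb reads in the knockout pools and 4 in the control pools, and 1 fshb read in each group.

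Of 33 other tested neuropeptide genes of the hypothalamus and related brain regions, 0 passed with edgeR and with limma-voom, and DESeq2 called 1 higher. That gene was pdyn, the opioid precursor prodynorphin, with 5.08, 4.23 and 4.52 CPM in knockout pools 1, 2 and 3, against 1.52, 3.06 and 3.07 CPM in control pools 1, 2 and 3. Its groups did not overlap (log2 difference 0.86, edgeR adjusted p = 0.0799, DESeq2 adjusted p = 0.0441). At an unadjusted p under 0.05, 7 of the 33 were higher, beside 6.75% of all tested genes, and 0 lower, beside 8.83%. Positive values were found for 28 of the 33, with a median log2 difference of 0.28, whereas 49.1% of all tested genes were positive. Of 12 tested hormone genes of gut and pancreatic islet, 9 were positive, with a median log2 difference of 0.32. The libraries came from nearly whole larvae, and the part of other tissues in these neuropeptide values was not tested. Next to pdyn the smallest p was that of rln3a, a relaxin-type peptide gene, with a log2 difference of 0.46 (edgeR adjusted p = 0.150). The gene for growth hormone-releasing hormone, ghrh, was too low to be tested. It had 2, 5 and 12 reads in knockout pools 1, 2 and 3 and 2, 0 and 1 reads in control pools 1, 2 and 3. The ratio was 6.27 (95% exact binomial interval 1.85 to 33.1, counting error only). Thyrotropin-releasing hormone, TRH, had 7.50 ± 2.35 CPM in knockout pools and 5.88 ± 0.308 CPM in control pools (edgeR adjusted p = 0.467).

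Transcription factors of the same regions were mostly on the other side of 0. Of 33 tested hypothalamic factors 2 fell and 0 rose, beside 2.5% and 1.45% of all tested genes. There were 6 positive values and a median log2 difference of −0.17. Summed over the 34 listed factors, knockout pools 1, 2 and 3 had 556, 618 and 649 CPM. Control pools 1, 2 and 3 had 730, 678 and 640 CPM, so the groups overlapped. The libraries came from nearly whole larvae, and the part of other tissues in the levels of these factors was not tested. DBX1 (ENSDARG00000086393) fell to 4.87, 4.23 and 3.31 CPM in knockout pools 1, 2 and 3, against 6.50, 7.53 and 7.52 CPM in control pools 1, 2 and 3 (log2 fold change −0.79, edgeR adjusted p = 0.0213). LEF1, a nuclear effector of Wnt signalling, fell by 0.47 on the log2 scale (edgeR adjusted p = 0.0306). When single pools were left out, DBX1 did not pass without knockout pool 2 or 3 or control pool 2 or 3 (edgeR adjusted p = 0.0838, 0.0842, 0.0864 and 0.103). LEF1 did not pass without knockout pool 1 or 2 or any 1 of the control pools (edgeR adjusted p = 0.0502 to 0.139). With edgeR at an unadjusted p under 0.05, 0 were higher and 5 lower, beside 6.75% and 8.83% of all tested genes. DESeq2 and limma-voom called 0 higher and 3 and 2 lower. OTP, SIM1 and ARNT2, which specify the neuroendocrine neurons that make Crh, vasotocin and isotocin, did not pass. The OTP genes had log2 differences of −0.14 (ENSDARG00000014201) and 0.09 (ENSDARG00000058379), SIM1 of −0.19 and ARNT2 of −0.10 (edgeR adjusted p = 0.685, 0.730, 0.515 and 0.798).

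Of 25 tested pituitary factors 1 fell and 0 rose, beside 2.5% and 1.45% of all tested genes. The median log2 difference was −0.13, with 7 positive values. The gene that fell was NR4A1, an immediate-early nuclear receptor known in mammals to activate the Pomc promoter. It stood at 20.5, 18.1 and 19.9 CPM in knockout pools 1, 2 and 3, against 29.0, 24.7 and 28.6 CPM in control pools 1, 2 and 3 (log2 fold change −0.49, edgeR adjusted p = 0.0280). A link to pomca, which was higher in the same pools, was not tested. Of the scaling and leave-out fits, NR4A1 did not pass with upper-quartile scaling (0.0515), or without knockout pool 2 or 3 or control pool 1 or 3 (0.143, 0.0825, 0.0778 and 0.135, edgeR adjusted p). The factors pitx1 and NEUROD1, expressed in corticotrophs and in other cells, had log2 differences of −0.37 and −0.34, without overlap (edgeR adjusted p = 0.121 and 0.135). Groups without overlap were seen for 6 of the 25 factors, 0 higher and 6 lower. Of all tested genes, 10.8% were higher and 10.6% lower without overlap. The part of other tissues in these levels was not tested. TBX19, which specifies pomc-expressing cells in mammals, was too low to be tested, with 22 reads in the knockout pools and 23 in the control pools (ratio 0.948, 95% exact binomial interval 0.504 to 1.78). POU1F1 is the factor required in zebrafish for cells that make growth hormone, prolactin and thyrotropin. It had 1, 3 and 0 reads in knockout pools 1, 2 and 3 and 2, 4 and 9 in control pools 1, 2 and 3. The ratio was 0.264 (95% exact binomial interval 0.0638 to 0.829, counting error only). DESeq2 and limma-voom called 0 pituitary factors higher and 1 lower, and at an unadjusted p under 0.05 edgeR had 0 higher and 6 lower, beside 6.75% and 8.83% of all tested genes.

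Both factor lists and the neuropeptides are expressed in neurons, for which 31 general markers were measured. Of these 2 fell, tubb5 and map2, and 0 rose, beside 2.5% and 1.45% of all tested genes. The median log2 difference was −0.20. Without control pool 2 or 3 tubb5 did not pass, and map2 passed in 1 of the 6 fits that left out a pool, that without knockout pool 3. The summed level of the neuron markers was 3415, 4064 and 4411 CPM in knockout pools 1, 2 and 3 and 4754, 4484 and 4231 CPM in control pools 1, 2 and 3, so the groups overlapped. Of the 31, 3 had positive values. At an unadjusted p under 0.05 with edgeR, 0 were higher and 5 lower, beside 6.75% and 8.83% of all tested genes. DESeq2 called 0 higher and 3 lower, and limma-voom 0 higher and 2 lower. Of 12 tested markers of chromaffin and dopaminergic cells 0 passed with edgeR, DESeq2 or limma-voom. At an unadjusted p under 0.05, 2 were lower, GATA3 and DDC, beside 8.83% of all tested genes. Of 19 tested glia markers 1 fell and 0 rose, beside 2.5% and 1.45% of all tested genes, and the median log2 difference was 0.03. The part of these markers in the results on hormone genes was not tested.

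**Figure D4:**
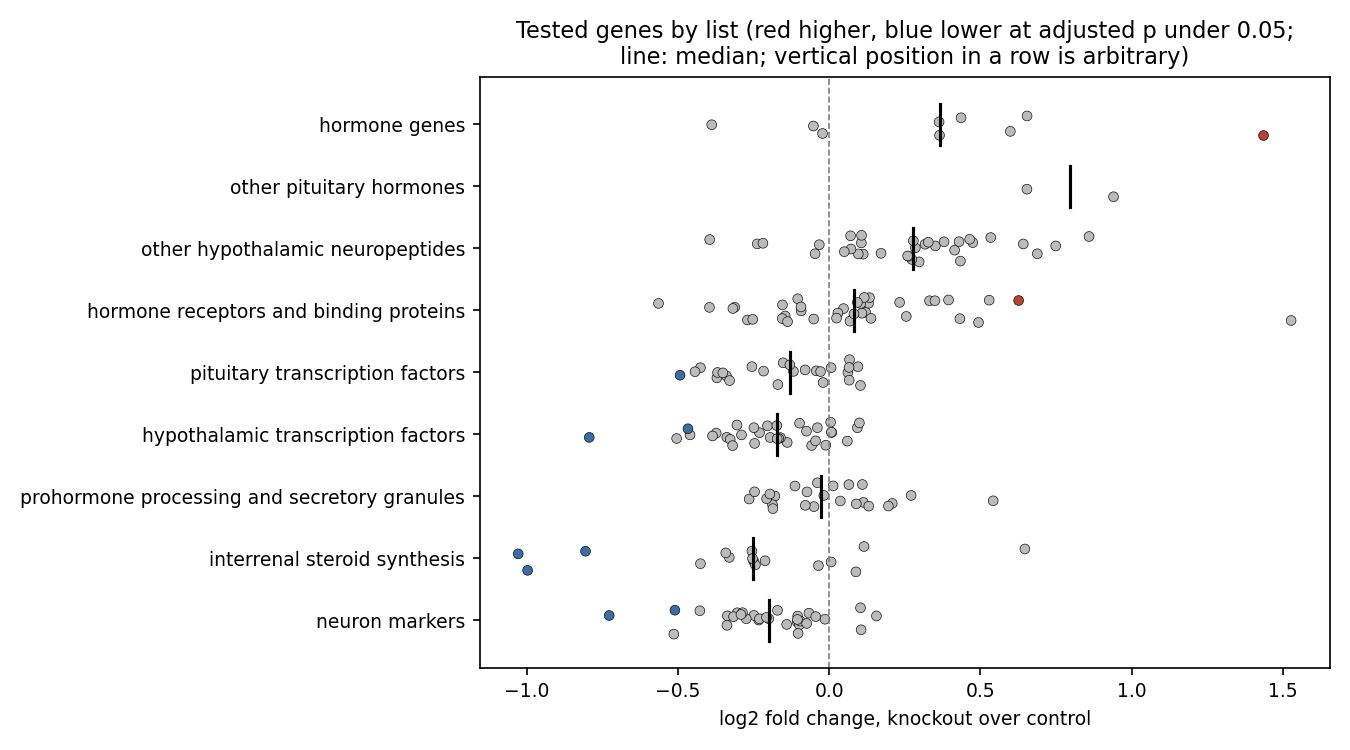
Log2 fold change, knockout over control, of every tested gene in the hormone set and 8 related lists; grey points did not pass an adjusted p of 0.05, red points were higher and blue points lower, and the black line is the median of the list. The median lies at 0.28 for the other hypothalamic neuropeptides and at −0.17 for the hypothalamic transcription factors, beside −0.01 for all tested genes.

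Enzymes that cut and amidate prohormones, and proteins of the dense granules that store them, were also measured. Of 24 tested genes 0 passed with edgeR, DESeq2 or limma-voom, and the median log2 difference was −0.03. At an unadjusted p under 0.05, 1 was higher, the granin gene chgb, beside 6.75% of all tested genes. PCSK1, the convertase that releases ACTH from its precursor, had 22.6 ± 5.11 CPM in knockout pools and 25.6 ± 3.22 CPM in control pools. PCSK2, which cuts ACTH further towards melanocyte-stimulating hormone, had 11.2 ± 2.59 CPM in knockout pools and 13.4 ± 2.26 CPM in control pools. Neither passed (edgeR adjusted p = 0.659 and 0.537), and both are also expressed in other endocrine cells and neurons. The granule genes chgb and SCG3 had the smallest p, at log2 differences of 0.27 and 0.20 (edgeR adjusted p = 0.200 and 0.394).

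A list of hormone receptors and binding proteins also held leptin and dopamine signalling genes. Of its 37 tested genes 1 was higher and 0 lower, beside 1.45% and 2.5% of all tested genes. The median log2 difference of the list was 0.08. DESeq2 and limma-voom gave the same counts. At an unadjusted p under 0.05 edgeR had 2 higher and 1 lower, beside 6.75% and 8.83% of all tested genes. The gene that rose was lepr, the receptor for leptin, a hormone outside the set of 10, which in mammals acts on pomc and agrp neurons. It stood at 45.8, 46.1 and 42.8 CPM in knockout pools 1, 2 and 3, against 29.8, 30.2 and 27.2 CPM in control pools 1, 2 and 3, without overlap. The log2 fold change was 0.63 (SE 0.10, edgeR adjusted p = 0.00427), and lepr passed in all 14 other settings. The leptin gene lepa had 1.19, 1.05 and 0.210 CPM in knockout pools 1, 2 and 3, against 0.812, 0 and 0 CPM in control pools 1, 2 and 3, so its control reads all came from pool 1, and it did not pass (edgeR adjusted p = 0.570).

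The CRH-binding protein gene CRHBP, whose product takes up free Crh, had 19.7, 19.0 and 20.7 CPM in knockout pools 1, 2 and 3, against 15.7, 16.4 and 13.0 CPM in control pools 1, 2 and 3. The groups did not overlap, and the log2 difference of 0.39 did not pass (edgeR adjusted p = 0.105). The Crh receptor CRHR1 had a log2 difference of 0.12 and the glucocorticoid receptor NR3C1 of 0.08 (edgeR adjusted p = 0.700 and 0.796). The prolactin receptor gene prlrb and the growth hormone receptor gene ghrb had log2 differences of −0.56 and −0.15 (edgeR adjusted p = 0.284 and 0.594). The value of prlrb rests on 62 reads in the knockout pools and 91 in the control pools. The other prolactin receptor gene, PRLR, had 4082 reads in the knockout pools and 3768 in the control pools. Its groups overlapped, with a log2 difference of 0.10 (edgeR adjusted p = 0.784). The ACTH receptor mc2r had 3 reads in the knockout pools and 3 in the control pools, too few for a comparison. Its accessory protein gene mrap had 1, 1 and 0 reads in knockout pools 1, 2 and 3 and 5, 4 and 2 in control pools 1, 2 and 3. That is 2 reads against 11 (ratio 0.180, 95% exact binomial interval 0.0194 to 0.825, counting error only).

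The interrenal gland is the target of ACTH. Of 16 tested genes on a list for interrenal steroid synthesis 3 fell and 0 rose with edgeR, beside 2.5% and 1.45% of all tested genes. The 3 include NR0B1, which codes for a nuclear receptor and not for an enzyme, so the count was not read as a change in synthesis. The median log2 difference of the list was −0.25. At an unadjusted p under 0.05, 1 was higher and 5 lower, beside 6.75% and 8.83% of all tested genes. DESeq2 and limma-voom each called 0 higher and 2 lower. FDXR, the mitochondrial reductase that feeds electrons to steroid-making P450 enzymes and to other pathways, stood at 7.05, 9.41 and 7.88 CPM in knockout pools 1, 2 and 3, against 12.3, 20.4 and 16.0 CPM in control pools 1, 2 and 3. Its log2 fold change was −1.0 (SE 0.19, edgeR adjusted p = 0.0101), and it passed in all 14 other settings.

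The 21-hydroxylase gene cyp21a2, needed for cortisol, had 1.35, 1.05 and 1.31 CPM in knockout pools 1, 2 and 3, against 2.89, 2.29 and 2.38 CPM in control pools 1, 2 and 3. It fell by 1.03 on the log2 scale (edgeR adjusted p = 0.0237) and did not pass without knockout pool 2, knockout pool 3, control pool 1 or control pool 3 (adjusted p = 0.110, 0.0599, 0.0791 and 0.0683). NR0B1, a nuclear receptor gene of steroid-making cells, had 1.66, 1.99 and 2.21 CPM in knockout pools 1, 2 and 3, against 3.35, 3.87 and 3.02 CPM in control pools 1, 2 and 3. Its log2 fold change of −0.80 passed narrowly (edgeR adjusted p = 0.0460). NR0B1 passed in 4 of 14 other settings, and in none of the fits that left out a pool (adjusted p up to 0.183, without control pool 2). STAR, which carries cholesterol into mitochondria, had log2 −0.26 and the 11-beta-hydroxylase gene cyp11c1 −0.04 (edgeR adjusted p = 0.570 and 0.976). Not all values were negative, and 4 of the 16 tested genes were positive. The gene cyp17a2 was higher without overlap and did not pass. Its knockout pools were at 0.993 CPM or more and its control pools at 0.761 CPM or less. Of genes too low to be tested, hsd3b2 had 29 reads in the knockout pools and 16 in the control pools. CYP11A1 (ENSDARG00000092696) had 18 and 33. Its reads were 10, 0 and 8 in knockout pools 1, 2 and 3 and 13, 11 and 9 in control pools 1, 2 and 3. The other CYP11A1 gene (ENSDARG00000002347) had 7 reads in the knockout pools and 3 in the control pools. The steroidogenic factor NR5A1 (ENSDARG00000103176) was at 6.89 ± 0.764 CPM in knockout pools and 6.86 ± 0.442 CPM in control pools. Many of these genes are also expressed outside the interrenal gland, and the part of other tissues in their levels was not tested.

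**Figure D5:**
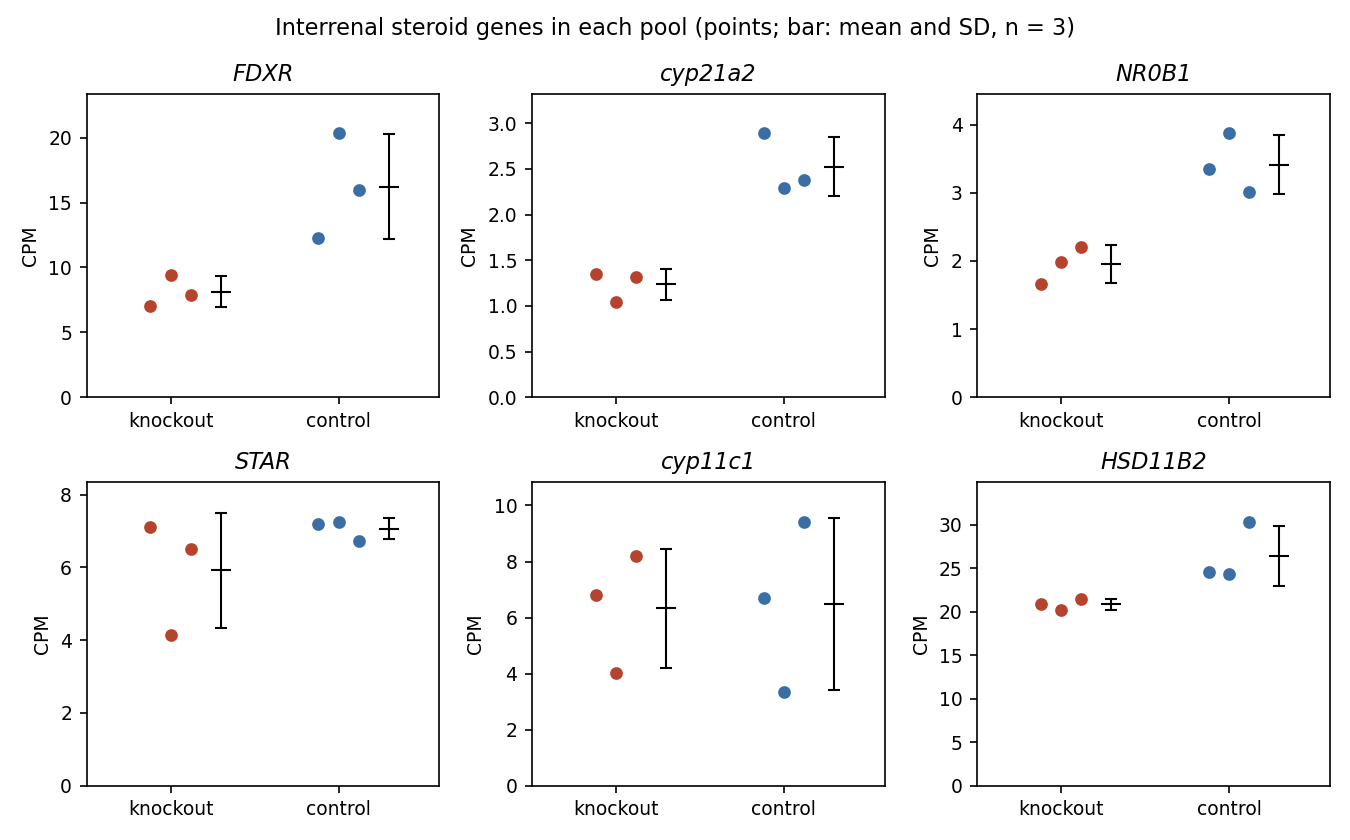
Scaled CPM of 6 interrenal steroid genes in each pool, with knockout pools in red on the left and control pools in blue on the right; the bars are the mean and SD of 3 pools, and each y axis starts at 0. The upper row holds FDXR, cyp21a2 and NR0B1, which passed an adjusted p of 0.05, and the lower row holds STAR, cyp11c1 and HSD11B2, which did not.

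Among 12 tested hormone genes of gut and pancreatic islet, which are peptide hormones of other endocrine cells, 2 rose and 0 fell with edgeR, DESeq2 and limma-voom. Both were glucagon genes, gcga with a log2 fold change of 1.27 and GCG with 0.69. At an unadjusted p under 0.05, 5 were higher and 0 lower, beside 6.75% and 8.83% of all tested genes. At the threshold these shares of all tested genes were 1.45% and 2.5% with edgeR. In the same libraries 21 of 26 tested exocrine pancreas genes and 20 of 30 hepatocyte genes fell, and 0 rose in either list. The summed level of 27 exocrine pancreas genes was 1773 to 2133 CPM in knockout pools and 5993 to 10261 CPM in control pools. The summed level of 30 hepatocyte genes was 10312 to 13315 CPM in knockout pools and 15283 to 18627 CPM in control pools. Of 30 skeletal muscle markers 0 passed with edgeR or limma-voom and 1 was higher with DESeq2. At an unadjusted p under 0.05, 2 were higher and 1 lower, beside 6.75% and 8.83% of all tested genes. The sums of the muscle markers stood at 85036 to 101237 CPM in knockout pools and 84648 to 104919 CPM in control pools. The part of these tissue differences in the levels of the hormone genes was not tested.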

How the data were processed

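Per the labels' protocols, libraries of 3 knockout and 3 control pools were made from poly(A) RNA without strand marking and read from both ends. The deposited values are estimated counts per Ensembl gene, stored as whole numbers, so rounding changed 0 values. The submitters' processing notes name Salmon, DESeq2, Trim Galore and FastQC and the build GRCz11; their roles and versions are not given in the sources used here. Without strand information, reads of overlapping genes cannot be told apart. Genome positions are not printed, because the RefSeq table belongs to another build.

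An ID-to-symbol table named 23598 of 25859 genes, and symbols are printed in its capitals where it has them, except for the 10 hormone genes and hspd1. For other lists a name without a match was tried without its final paralog letter, then through RefSeq synonyms. The hormone genes and the 14 other lists were chosen with earlier results of these data known. The genes named were the hormone genes, hspd1, each listed gene past the threshold (or else the 2 with the smallest p) and the 3 genes most like pomca. The other genes named were chosen after their values were seen. The called genes of liver and exocrine pancreas are not named. A called gene of the glia list is not reported here.

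Genes were kept by edgeR's filterByExpr (0.0516% of counts removed) and scaled by TMM (factors 0.970 to 1.03). Genotypes were compared with edgeR's robust quasi-likelihood test (edgeR 4.0.16, R 4.3.3), Benjamini-Hochberg adjusted over all 21602 genes, at 0.05. Standard errors were derived from the F statistic of each gene. Log CPM used a prior count of 2. On simulated data with 21469 genes of this comparison, the test recovered 82 of 100 genes with a log2 change of 1 and 96 of 100 with a change of 2, and 15 of its 193 calls were false. Intervals of read ratios are exact binomial at 95% and cover counting error only. No pools of a group were alike within sampling noise (chi-square per degree of freedom 7.22 to 20.6). The p-values set the difference between genotypes against the spread between pools of larvae. Alternatives were RLE and upper-quartile scaling, other filters, DESeq2 1.42.0, limma-voom (limma 3.58.1), a threshold of 0.01, a replicate block, no robust estimation (added after the data were seen) and each pool left out.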

Additional observations from a re-analysis of the deposited data

How the results depend on the processing

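The log2 fold change of pomca was 1.33 to 1.56 over 14 alternative fits and passed in each. With upper-quartile scaling, no filter and DESeq2, gh1 passed at 0.65, 0.61 and 0.60, which made 2 hormone genes higher. Upper-quartile scaling turned npy to 0.027 and left 0 pituitary factors and 0 glia markers lower. DESeq2 called 1 other neuropeptide and 1 muscle marker higher. At an adjusted p of 0.01, 153 genes were higher and 297 lower, and 0 pituitary factors, hypothalamic factors, interrenal genes, neuron markers or glia markers were lower. Leaving out each pool in turn gave 186 to 357 genes higher and 364 to 625 lower, with 1 to 2 hormone genes and 1 to 2 receptors higher and 1 to 2 interrenal genes lower. Over the same fits 0 to 1 granule genes, 0 to 1 glia markers and 0 to 1 muscle markers were higher. The lower genes were 0 to 1 pituitary factors, 0 to 2 hypothalamic factors, 0 to 3 neuron markers, 0 to 1 glia markers and 0 to 1 muscle markers. Log2 differences ran from 0.49 to 0.75 for gh1, from −0.10 to 0.056 for npy and from −0.29 to 0.37 for avp. The cause of these changes was not tested. With the replicate number as a block, 243 genes were higher and 482 lower, 0 pituitary factors, 0 hypothalamic factors and 0 glia markers were lower, and 1 neuron marker was lower. Same-numbered pools had correlations of −0.24, 0.11 and −0.092 in their deviations from the group means, so the numbers were not read as pairs. Pools of different number had correlations from −0.21 to 0.26, highest for knockout pool 3 with control pool 1. The labels give 3 mating sets and do not say which pools share one. A pairing under other numbers was not modelled. Under the block NR4A1, DBX1, LEF1, map2 and NR0B1 did not pass (adjusted p = 0.0676, 0.0550, 0.111, 0.104 and 0.0940). The reads limit tshba, avp and the hormone genes left untested. The fit with at least 1 CPM in 3 pools gave no value for avp.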
